A study of Picea glauca with 69 samples.

Results

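Seedlings of white spruce (Picea glauca) raised from polymix pollination (PM) were compared with seedlings raised from open pollination (OP) of the same 6 trees, numbered 122, 129, 138, 193, 754 and 927. Members were taken from the sample titles: every title with PM, and every title with OP that carries the number of a tree with a PM family. This gave 45 of the 69 seedlings of the series, 21 PM seedlings in 6 families and 24 OP seedlings in 6 families, so that each tree had 1 family of either kind. In a polymix cross the pollen is a mixture from several donors, and in open pollination it comes from whatever trees shed pollen nearby. By breeding convention the tree in the title is the seed parent. The pollen donors are not given in the labels, and OP is the study's control. No seedling of either kind was treated. All were grown in a greenhouse through the second growing season, under 16 h of light and 8 h of dark, at no more than 25 °C in the day and 18 °C at night, and were harvested on day 92. Of the 12 families, 9 had 3 seedlings, while 754_PM, 754_OP and 927_OP had 6 each. In 754_PM the seedlings of repetitions 4 to 6 are PM by title and by breeding strategy but carry the sample type of a control. They were kept as PM. One label gives the tissue as needles and the extraction protocol gives it as apical internode. Markers of tissue were not measured, so the label could not be checked. Each tree had a single family of each kind and no label names a seed lot or block. A p-value over family means therefore measures the spread over these 6 trees. A p-value over seedlings measures the spread among seedlings and cannot tell the kind of pollination from the family.

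Gibberellins are plant hormones that promote the elongation of stems. Active forms are made in the last steps of synthesis by GA20ox, a 20-oxidase that builds the precursor, and then by GA3ox, a 3-oxidase that turns the precursor into active hormone. GA2ox, a 2-oxidase, inactivates gibberellins. In the nucleus, hormone bound to the receptor GID marks DELLA proteins for destruction, and DELLA proteins restrain growth while they persist. In Arabidopsis active gibberellin lowers the transcripts of synthesis genes and of the receptor and raises those of GA2ox.

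Transcripts of these 5 genes were measured by reverse transcription and real-time quantitative PCR against the control gene TIF. In the authors' files the genes are GA20ox (HQ408573.1), GA3ox (PG29_BFMXY_Trinity_Pasafly_comp413321_c0_seq1_rc), GA2ox (PG29_BFMXY_Trinity_Pasafly_comp427203_c0_seq1), GID (BT102965.1) and DELLA (BN001188.1). Levels are on a log2 scale relative to TIF. A less negative level means more transcript, and a step of 1 stands for a factor of 2 where every cycle doubles the product. DELLA had the highest value of the 5 in 12 of 12 families, GA3ox the lowest in 12, and GID was second in 11. These ranks compare different primer pairs and not amounts of RNA. Differences are PM minus OP family means of the same tree, each with the SE over 6 trees.

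None of the 5 transcripts passed the test for a difference between PM and OP families of the same tree. GA3ox had the widest difference, with a PM level 1.58-fold that of OP and PM above OP in 5 of 6 trees. GID was at 0.825 of the OP level and GA2ox at 0.829, each with PM below OP in 5 of 6 trees. GA20ox and DELLA had mean differences near 0 and split 3 trees against 3. The share of the 5 genes with an adjusted p under 0.05 was 0%, and 0 had an unadjusted exact p under 0.05. The test was the exact two-sided permutation test that turns the signs of the 6 paired differences, with Benjamini-Hochberg adjustment over the genes. Its smallest possible p is 0.0312. At that number of pairs an adjusted p under 0.05 needs at least 4 of the 5 genes at the smallest p, so the design could pass the threshold only for a shift shared by most genes. The interval given with each difference runs from the lowest to the highest of the 6 paired differences and has an exact coverage of 96.9%.

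**Figure D1:**
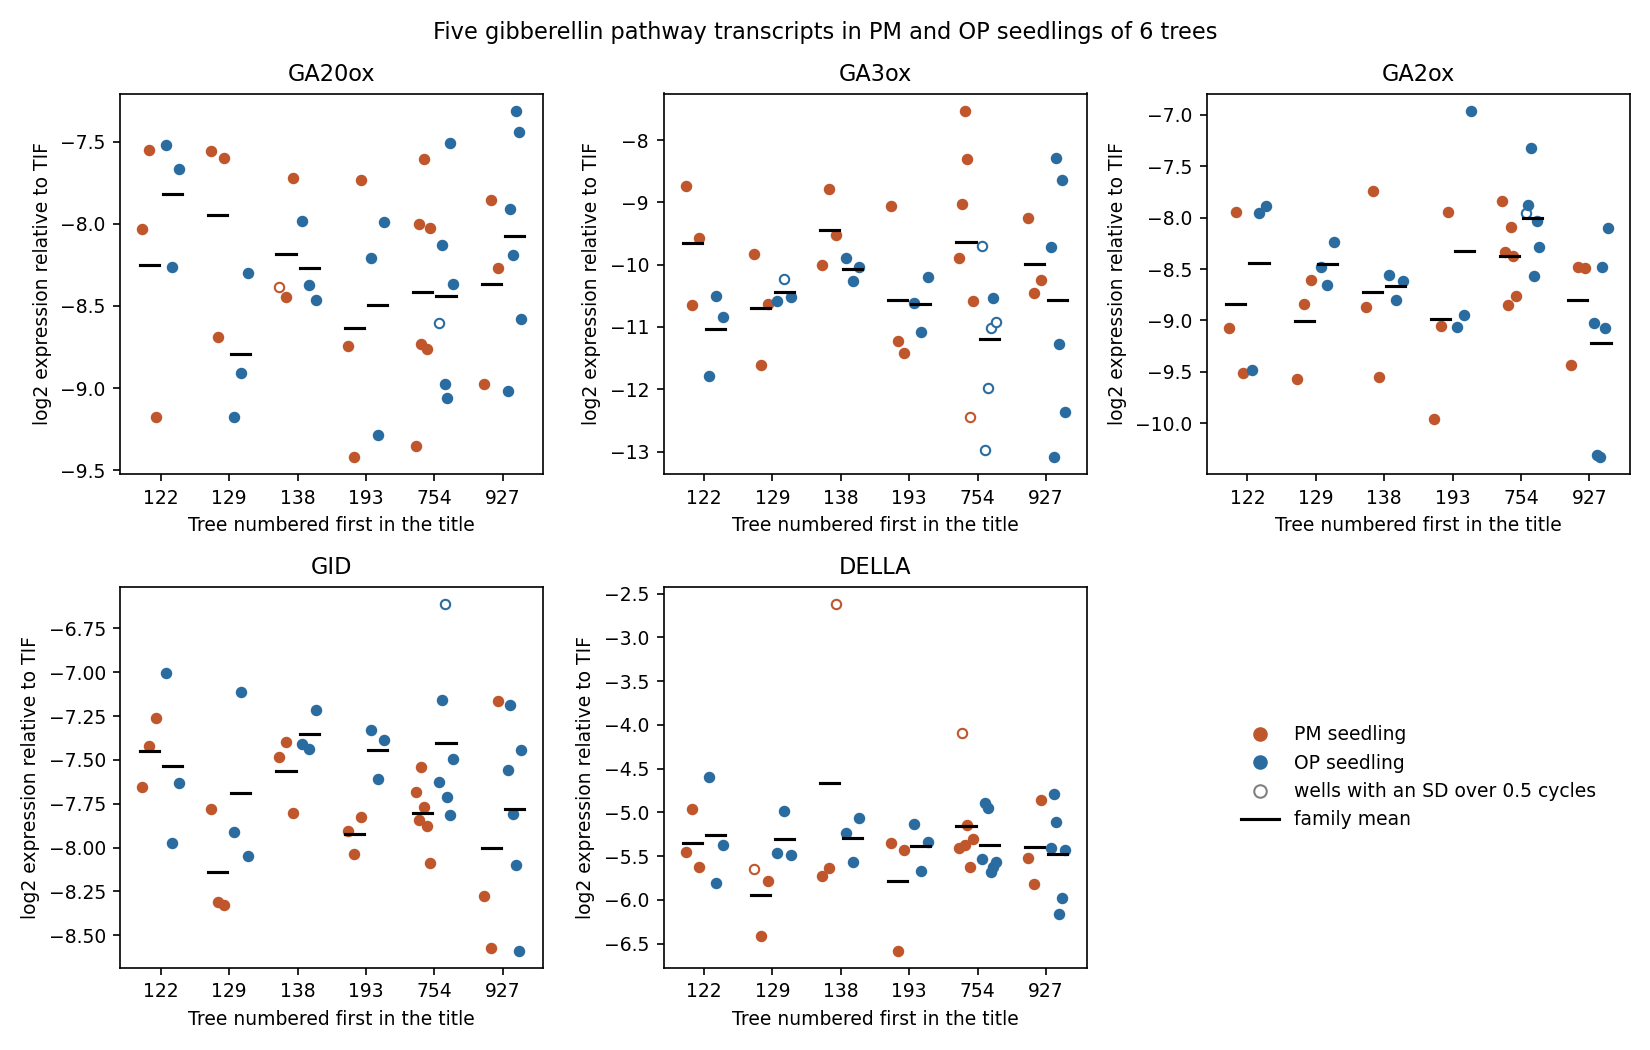
Log2 expression relative to TIF (y axis) of each seedling by tree number (x axis), for PM (orange) and OP (blue) seedlings, with bars at family means and open circles where the wells had an SD over 0.5 cycles. For GA3ox the PM bar stands above the OP bar in 5 of 6 trees, and for GA2ox and GID it stands below in 5 of 6.

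The first step measured, GA20ox, makes the precursor of the active hormone. Its family means averaged -8.30 ± 0.23 (SD, n = 6) in PM and -8.31 ± 0.34 (n = 6) in OP, a difference of 0.02 ± 0.18 (SE, interval -0.44 to 0.85; exact p = 0.938, adjusted 0.938). The interval leaves room for a PM level between 0.739 and 1.80 of OP. Tree 129 was at the upper end. Its PM seedlings had GA20ox at -7.56, -8.69 and -7.60, and its OP seedlings at -9.17, -8.91 and -8.30. Tree 122 was at the lower end, with PM seedlings at -8.03, -7.55 and -9.18 and OP seedlings at -7.52, -8.26 and -7.66. In both trees the ranges of the PM and OP seedlings overlapped. Without tree 129 the difference was -0.15.

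GA3ox, which makes the active hormone, had family means of -9.99 ± 0.53 (SD, n = 6) in PM and -10.66 ± 0.41 (n = 6) in OP. The difference was 0.66 ± 0.29 (SE, interval -0.25 to 1.56), or 1.58-fold (0.842 to 2.95), with an exact p of 0.0938 and an adjusted p of 0.234. Trees 754 and 122 had the 2 largest differences, and tree 129 was the exception in sign. In tree 122 the PM seedlings had GA3ox at -8.73, -10.65 and -9.57 and the OP seedlings at -11.78, -10.50 and -10.84, which gave a family difference of 1.39. In tree 754 the 6 PM seedlings ran from -12.44 over a median of -9.45 to -7.53 and the 6 OP seedlings from -12.98 over -10.97 to -9.71, a difference of 1.56. Tree 754 thus held the lowest and the highest PM value of all 21 PM seedlings. In tree 138 PM values of -10.01, -8.78 and -9.52 stood against OP values of -9.89, -10.27 and -10.03, a difference of 0.63. In tree 927 PM values of -9.25, -10.45 and -10.24 fell inside the OP range, which went from -13.09 over a median of -10.49 to -8.29, and the difference was 0.58. Families of trees 193 and 129 were close or opposite. PM seedlings of tree 193 had -9.06, -11.23 and -11.42 against -10.61, -11.08 and -10.20 in OP (difference 0.06). PM seedlings of tree 129 had -9.84, -11.61 and -10.63 against -10.58, -10.24 and -10.52 in OP (difference -0.25). In no tree were the GA3ox values of the PM and OP seedlings separate.

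Several measured facts accompany the GA3ox difference. Technical wells of GA3ox spread by an SD over 0.5 cycles in 6 OP seedlings, 5 of them in 754_OP, and in 1 PM seedling. With those values left out the difference was 0.66 (exact p = 0.0938), although tree 754 then rested on 1 OP seedling. Of the 5, repetition 1 has last wells that appear shifted between genes, which its deposited value does not carry. With that seedling kept, a choice made after seeing the data, the difference was 0.59 (exact p = 0.0938). The 3 PM seedlings of tree 754 with the sample type of a control had a mean GA3ox of -10.45, and the other 3 had -8.81. Without those 3 seedlings the tree 754 difference was 2.38 (exact p = 0.0357 over seedlings, adjusted 0.833 over 30 comparisons within trees). Without repetition 1 of every family the GA3ox difference was 0.40 (exact p = 0.406), and without repetition 2 it was 0.70 (exact p = 0.0312, the smallest possible, adjusted 0.156).

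GA2ox inactivates the hormone. Its family means averaged -8.79 ± 0.23 (SD, n = 6) in PM and -8.52 ± 0.41 (n = 6) in OP, a difference of -0.27 ± 0.16 (SE, interval -0.66 to 0.42; exact p = 0.156, adjusted 0.260). PM stood at 0.829 of OP, with limits of 0.631 and 1.34. The 5 trees with a lower PM mean ran from -0.66 in tree 193 over -0.55 in tree 129, -0.40 in tree 122 and -0.37 in tree 754 to -0.06 in tree 138. Tree 927 was opposite, at 0.42. In tree 193 a single OP seedling at -6.96, the highest GA2ox of all 45, stood against OP seedlings at -9.06 and -8.95 and PM seedlings at -9.96, -9.06 and -7.95. In tree 927 the OP family held the 2 lowest GA2ox values of the 45, -10.33 and -10.31, and its other 4 seedlings lay between -9.07 and -8.10, while the PM seedlings had -9.43, -8.48 and -8.49. The PM and OP seedlings overlapped in each of the 6 trees. Without repetition 2 of every family the GA2ox difference was -0.53 (exact p = 0.0625), and without repetition 3 it was -0.11 (exact p = 0.5). Without tree 927 it was -0.41 (exact p = 0.0625, the smallest possible for 5 pairs).

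GID, the hormone receptor, had the smallest p of the 5 genes. Family means averaged -7.81 ± 0.27 (SD, n = 6) in PM and -7.53 ± 0.17 (n = 6) in OP, a difference of -0.28 ± 0.09 (SE, interval -0.48 to 0.09), with an exact p of 0.0625 and an adjusted p of 0.234. PM was at 0.825 of OP, with limits of 0.716 and 1.06. The largest difference was in tree 193, at -0.48. There the PM seedlings had -7.91, -8.04 and -7.83 and the OP seedlings -7.33, -7.61 and -7.39, so that each PM value was below each OP value. Tree 129 followed at -0.45, with PM seedlings at -7.78, -8.31 and -8.33 and OP seedlings at -7.91, -7.11 and -8.05. In tree 754 the PM seedlings ran from -8.09 over a median of -7.81 to -7.54 and the OP seedlings from -7.82 over -7.56 to -6.61. That difference, -0.40, had an exact p of 0.0519 over 12 seedlings (adjusted 0.667 over 30 comparisons within trees). The upper OP value of -6.61 came from wells with an SD of 1.09 cycles, and without it the difference was -0.24 (exact p = 0.102). Trees 927 and 138 had smaller differences, -0.22 and -0.21. In tree 927 the PM seedlings were at -8.28, -8.57 and -7.16 and the OP seedlings between -8.59 and -7.19. In tree 138 PM values of -7.48, -7.40 and -7.80 met OP values of -7.41, -7.44 and -7.21. Tree 122 alone had a higher PM mean, by 0.09, with PM at -7.66, -7.42 and -7.26 and OP at -7.01, -7.97 and -7.63.

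The GID difference moved with the TIF wells used as reference. DELLA and GID were deposited relative to 2 TIF wells of their own and the 3 oxidases relative to 3 others. TIF itself had a mean Ct of 21.03 ± 0.73 (SD, n = 6 families) in PM and 20.82 ± 0.22 (n = 6) in OP in the set of the oxidases, a difference of 0.21 cycles (-0.93 to 1.53, exact p = 0.562). In the set of DELLA and GID it was 21.14 ± 0.69 in PM and 21.22 ± 0.27 in OP, a difference of -0.08 cycles (-1.42 to 0.78, exact p = 0.844). When the mean of the 5 TIF wells together served as reference, PM minus OP for GID was -0.10 (exact p = 0.406) and GA3ox was 0.53 (exact p = 0.188).

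DELLA encodes the growth repressor. Its family means averaged -5.38 ± 0.46 (SD, n = 6) in PM and -5.35 ± 0.08 (n = 6) in OP, a difference of -0.03 ± 0.18 (SE, interval -0.64 to 0.63; exact p = 0.844, adjusted 0.938). The limits for PM were 0.642 and 1.55 of OP. The 6 OP family means lay within 0.22 of each other and the PM means within 1.29. The 2 DELLA wells differed by over 2 cycles in 2 PM seedlings. In 138_PM repetition 3 the wells read 27.73 and 23.01 cycles and the deposited level was -2.62, the highest DELLA of all 45. In 754_PM repetition 2 they read 27.03 and 24.63 cycles and the level was -4.09. With the well farther from the other seedlings set aside, a rule that draws both levels towards the others, these levels were -4.98 and -5.29. The PM family SD was then 0.26 and the difference -0.20, or 0.872-fold, with PM below OP in 4 of 6 trees (exact p = 0.156). Tree 129, which holds neither seedling, had the lowest difference, -0.64. Its PM seedlings had DELLA at -5.65, -6.42 and -5.78 and its OP seedlings at -5.46, -4.98 and -5.49, with no overlap. The PM value nearest to OP, -5.65 in repetition 1, came from wells at 26.94 and 26.14 cycles, with an SD of 0.57. Without it the tree 129 difference was -0.79, again with no overlap but with 2 PM seedlings left. Its level from either well alone was not computed.

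**Figure D2:**
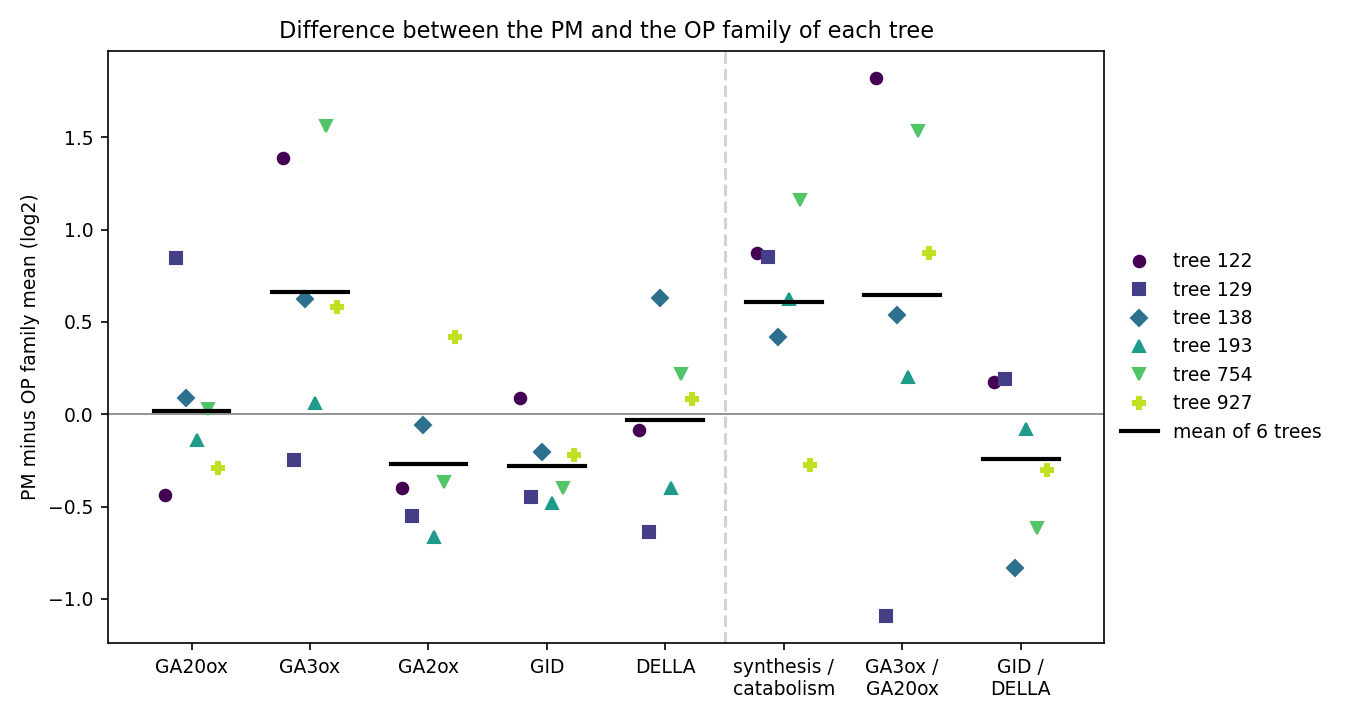
PM minus OP difference of family means (y axis, log2) for each of 6 trees, for the 5 transcripts and, right of the dashed line, 3 ratios within seedlings, with bars at the mean of the 6 trees. GA3ox and the synthesis to catabolism ratio are above 0 in 5 of 6 trees and GA2ox and GID below 0 in 5 of 6, while GA20ox and DELLA lie on both sides of 0.

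Ratios between transcripts of the same seedling were compared next. The ratio of synthesis to catabolism was taken as the average level of both synthesis genes minus GA2ox, from which TIF cancels because the 3 genes share its wells. PM families had it at -0.36 ± 0.24 (SD, n = 6) and OP families at -0.97 ± 0.60 (n = 6). The difference was 0.61 ± 0.20 (SE, interval -0.28 to 1.16), or 1.52-fold the OP ratio (0.825 to 2.24), with an exact p of 0.0625, or 0.188 when adjusted over 3 ratios. PM was higher by 1.16 in tree 754, 0.88 in tree 122, 0.85 in tree 129, 0.62 in tree 193 and 0.42 in tree 138. Tree 927 was opposite, at -0.28. The genes behind the ratio differed between trees. In tree 129 GA3ox was lower in PM, by -0.25, and the ratio followed GA20ox, at 0.85, and GA2ox, at -0.55. In tree 193 the ratio followed GA2ox, at -0.66, with GA3ox at 0.06. In trees 122 and 754 GA3ox was the largest term. PM had both higher GA3ox and lower GA2ox in 4 trees, both higher GA3ox and lower GID in 4, and all 3 of these in 3. As each of the 3 held in 5 of 6 trees, these are the lowest counts possible and show no joint pattern. Within every tree the PM and OP seedlings overlapped in this ratio.

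GA3ox relative to GA20ox, the later against the earlier synthesis step, averaged -1.69 ± 0.58 (SD, n = 6) for PM families and -2.34 ± 0.60 (n = 6) for OP families. The difference of 0.65 ± 0.43 (SE) ran from -1.09 in tree 129 to 1.82 in tree 122 (exact p = 0.219, adjusted 0.25). Without tree 129 it was 0.99 (exact p = 0.0625, the smallest possible for 5 pairs), and without tree 122 it was 0.41 (exact p = 0.438). Without repetition 1 of every family it was 0.33 (exact p = 0.5). In tree 129 the 3 PM seedlings, between -3.04 and -2.28, were all below the 3 OP seedlings, between -2.22 and -1.33. The ratio of GID to DELLA was -2.43 ± 0.33 in PM and -2.19 ± 0.15 in OP families, with a difference of -0.24 ± 0.17 (SE, interval -0.83 to 0.19; exact p = 0.25, adjusted 0.25). With the deviating DELLA well set aside in the 2 seedlings it was -0.08 (exact p = 0.469). Of the 3 ratios, 0 had an adjusted p under 0.05 and 0 an exact p under 0.05 before adjustment.

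Comparisons within single trees used seedlings as the unit, over 6 trees and 5 genes. Of these 30 comparisons, 2 had PM and OP seedlings that did not overlap, a share of 6.67%. Both had PM below OP: DELLA in tree 129 and GID in tree 193. Each had an exact p of 0.1, the smallest that 3 against 3 seedlings allow, and an adjusted p of 0.667. The PM mean was the lower in 17 of the 30. Of the 30, 0 had an adjusted p under 0.05 and 0 an unadjusted p under 0.05. Trees 754, with 6 against 6, and 927, with 3 against 6, were the 2 in which a p under 0.05 was within reach.

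Samples are numbered in the titles, and 5 runs of numbers, called series here, were set apart where the mean offset of the second set of TIF wells from the first changed. The division is not clean seedling by seedling: among the 45, offsets ran from -0.09 to 0.72 cycles in samples 1 to 24, from -1.71 to 0.0084 in 25 to 32, from 0.18 to 1.03 in 33 to 56, from -1.10 to 0.027 in 57 to 64 and from 0.053 to 0.12 in 65 to 69. No label says what the series are, so the values within them are a description. PM and OP seedlings were spread over them unequally, with 6 PM and 10 OP in samples 1 to 24, 3 and 2 in 25 to 32, 8 and 9 in 33 to 56, 2 and 3 in 57 to 64, and 2 PM seedlings alone in 65 to 69. Differences within a series are between means of seedlings pooled over trees, without pairing, so they mix tree with kind of pollination. GA3ox in PM minus OP was 0.82 in samples 1 to 24, -0.70 in 25 to 32, 1.81 in 33 to 56 and -0.26 in 57 to 64. Samples 33 to 56 thus held the widest gap, with PM seedlings between -10.65 and -7.53 and OP seedlings between -12.98 and -10.03, and 6 of the 8 PM seedlings above all 9 OP seedlings. The synthesis to catabolism ratio had differences of 0.25, -0.25, 1.56 and 0.20 in the same order. GID kept its sign in the 4 series, at -0.33, -0.67, -0.04 and -0.52, and GA2ox had 0.02, -0.20, -0.52 and -0.34. GID and GA3ox thus had their widest gaps in different series. With the series as a fixed term, fitted over seedlings in place of family means, GA3ox was 0.92 (exact p = 0.0312, the smallest possible, adjusted 0.156).

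Tree and series were also held together, in the 11 combinations that contain both a PM and an OP seedling. GA3ox was higher in PM in 8 of the 11, with a median difference of 0.56 and a range from -1.71 to 3.71. Both ends of that range belong to tree 754. Its 3 PM seedlings of samples 33 to 56 averaged -8.29 and its 3 OP seedlings -11.99, whereas in samples 57 to 64 its PM seedling was at -12.44 and its OP seedlings averaged -10.73. Both ends rest on wells that disagreed: an SD over 0.5 cycles was found in the GA3ox wells of each of the 3 OP seedlings in samples 33 to 56, and in those of the PM seedling and 1 of the OP seedlings in samples 57 to 64. GID was lower in PM in 9 of the 11, with a median of -0.39, and GA2ox in 8, with a median of -0.19. DELLA and GA20ox were each lower in PM in 7 of the 11. The combinations hold 1 to 5 seedlings of a kind and were not tested.

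**Figure D3:**
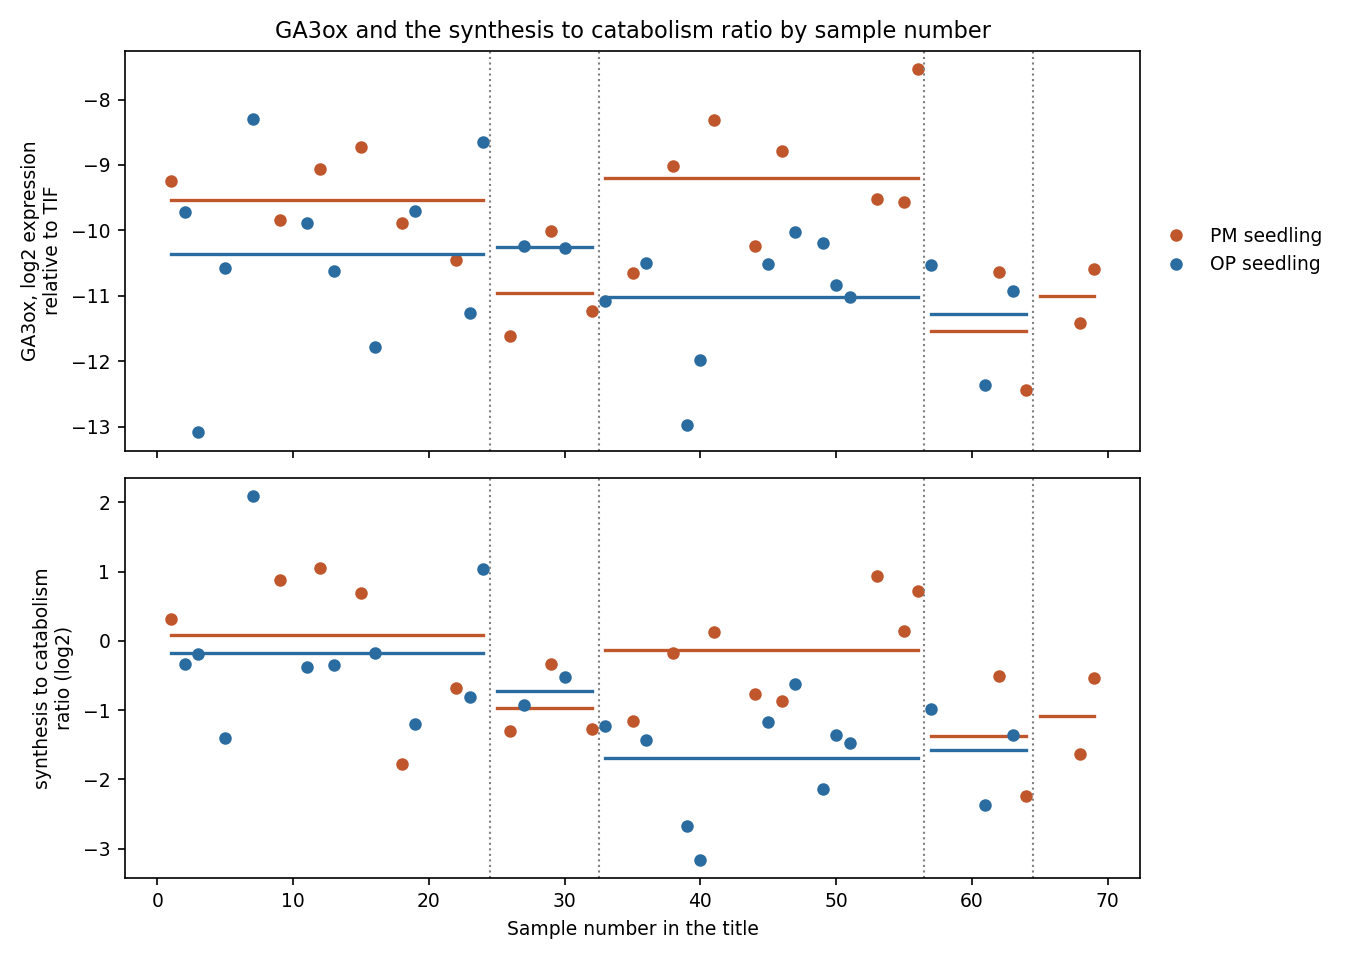
GA3ox (upper panel, log2 expression relative to TIF) and the synthesis to catabolism ratio (lower panel, log2) of each PM (orange) and OP (blue) seedling against its sample number in the title (x axis), with bars at the mean of each kind in each series and dotted lines between the series. PM means are above OP means for GA3ox in samples 1 to 24 and 33 to 56, by 0.82 and 1.81, and below in 25 to 32 and 57 to 64. The means pool seedlings over trees, which differ between PM and OP within a series.

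The spread among seedlings of a family was compared because a pollen mixture and open pollination may differ in the variety of fathers. The SD among PM seedlings was 1.80 times that among OP seedlings for GA3ox on average over trees, and wider in 5 of 6 trees (exact p = 0.188, adjusted 0.417). For GA20ox it was 1.33 times and wider in 5 of 6 (exact p = 0.0938, adjusted 0.417), for GA2ox 1.39 times and wider in 2 of 6 (exact p = 0.5), and for GID 0.759 times and wider in 2 of 6 (exact p = 0.375). DELLA had 1.66 times (exact p = 0.25). With the deviating well set aside, its log2 SD ratio was 0.08 (exact p = 0.875). That rule changes PM seedlings alone and draws them towards the others, so the narrower PM spread follows from it. With each seedling centred on its series, the log2 SD ratio of GA3ox was 0.48 in place of 0.85 (exact p = 0.312), that of GA2ox 0.17 in place of 0.48, that of GID -0.04 in place of -0.40, that of DELLA 0.47 in place of 0.73 and that of GA20ox 0.31 in place of 0.41 (exact p = 0.312). None of the 5 genes passed the test for a difference in spread, and family SDs rest on 3 or 6 seedlings.

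PM and OP families of the same tree share 1 parent, and the last comparison asked whether their levels ranked alike over the 6 trees. For GID, Pearson's r was 0.59 (exact permutation p = 0.213) and Spearman's rho 0.60 (exact permutation p = 0.242). Without the 2 trees farthest from the OP median, 129 and 927, r was -0.33. GA2ox had r of 0.33 and rho of 0.09, DELLA 0.18 and 0.37, GA3ox -0.15 and -0.09, and GA20ox -0.21 and -0.03, with exact permutation p from 0.490 to 0.768 for r. Adjusted over 5 genes, each r had a p of 0.768 and each rho a p of 1. Without the 2 farthest trees r was -0.83 for GA2ox, -0.80 for GA3ox, 0.58 for GA20ox and 0.34 for DELLA. Each of these rests on 4 trees and a narrowed range. With the mean of the 5 TIF wells as reference, r was 0.70 for DELLA (exact permutation p = 0.111) and 0.61 for GID (exact permutation p = 0.218), so the order of the genes changed with the reference.

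**Figure D4:**
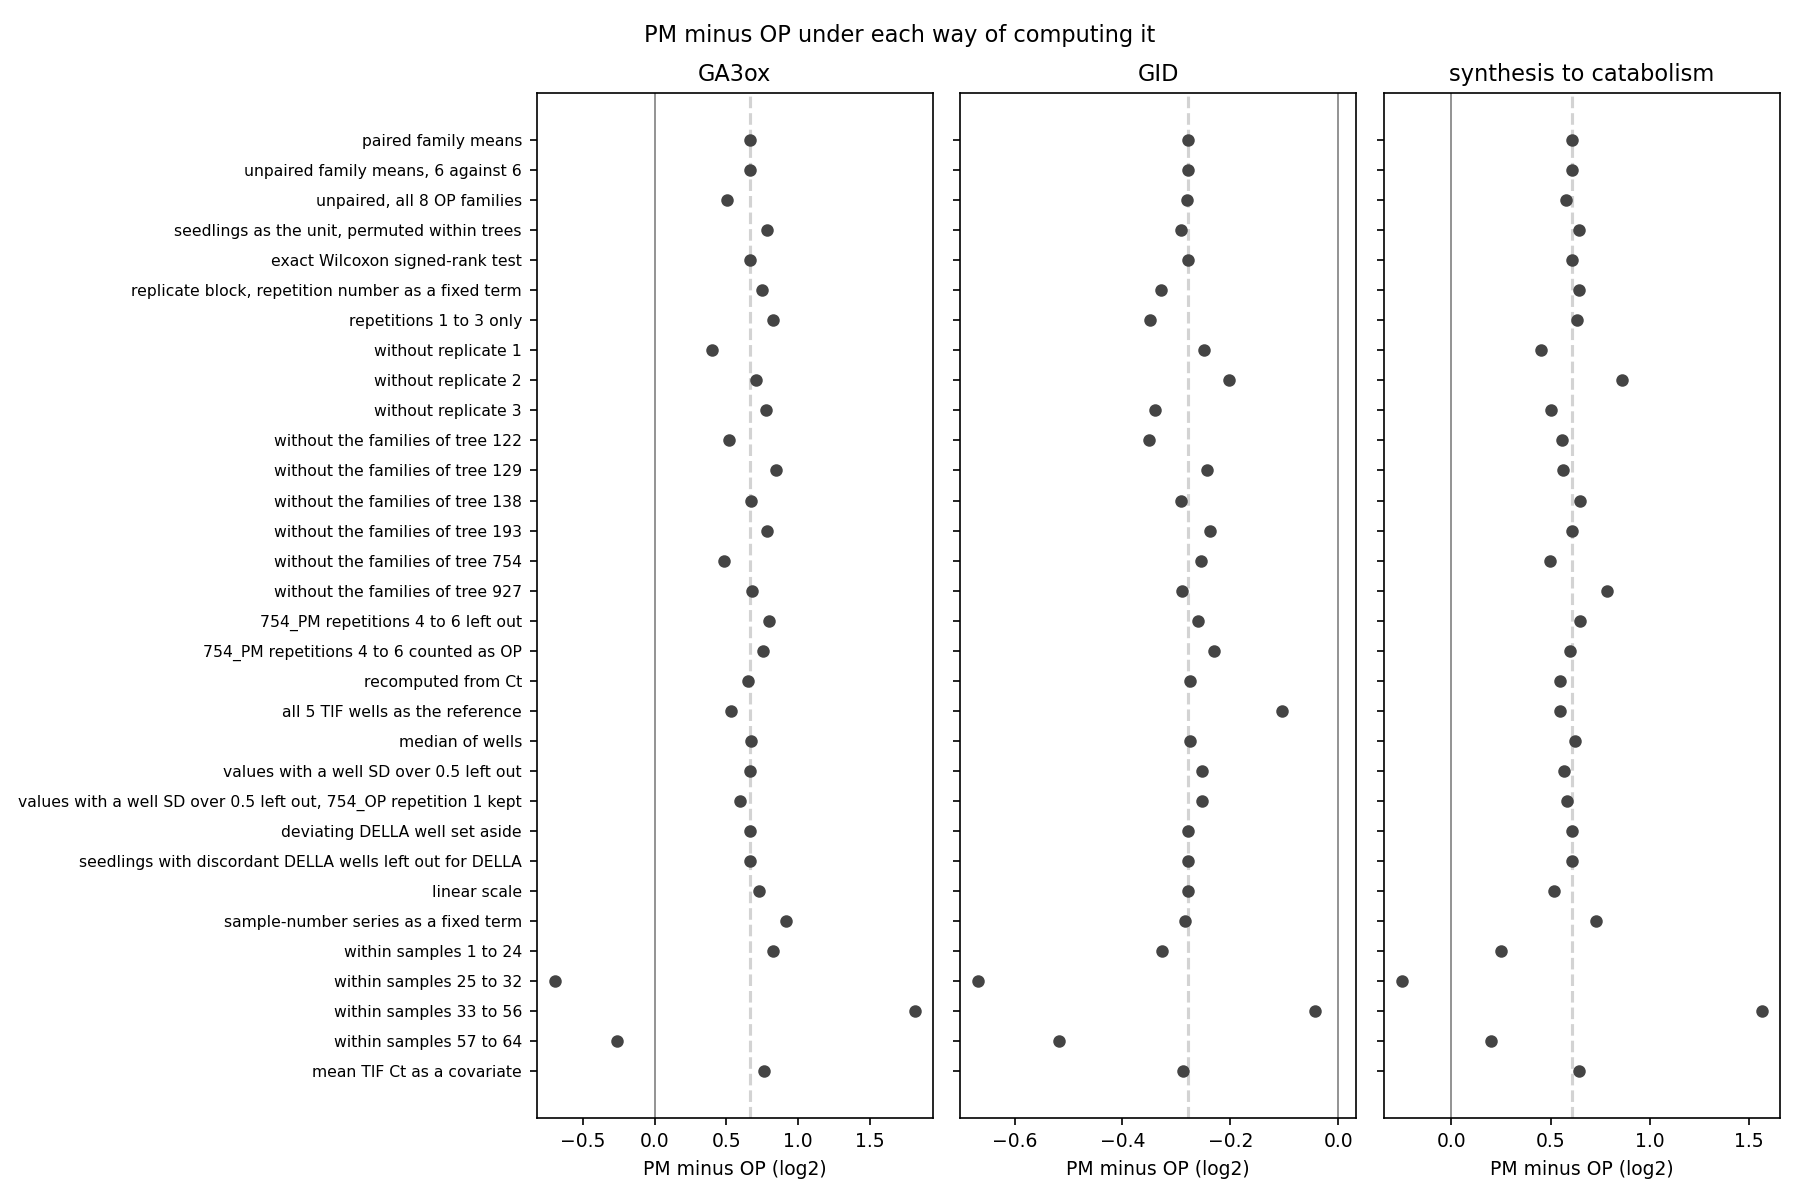
PM minus OP difference (x axis, log2) of GA3ox, GID and the synthesis to catabolism ratio under each way of computing it (y axis), with a dashed line at the paired family means and a solid line at 0. GID stays below 0 throughout, from -0.67 to -0.04. GA3ox falls below 0 in samples 25 to 32 and 57 to 64 and the ratio in samples 25 to 32. Values within a range of sample numbers pool seedlings over trees without pairing.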

How the data were processed

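Total RNA (0.5 µg per seedling) was reverse transcribed and amplified with SYBR Green over 40 cycles, per the labels' protocols. The authors deposited a threshold cycle (Ct) for every well, 3 wells per oxidase gene and 2 each for DELLA and GID. They also deposited log2 values, the mean Ct of a gene minus the mean Ct of TIF in its set of wells. Of 225 deposited values, 212 equalled this rule within 0.001 cycles and 217 this rule or a reference of all 5 TIF wells. The efficiency of each primer pair is not given in the sources used here. The sign was turned so that higher means more transcript, and no value was filtered or imputed in the results given first. In 754_OP repetition 1 the last wells of the oxidase genes appear shifted by 1 gene (GA20ox at 20.28 cycles against 28.91 and 28.88), which its deposited log2 values do not carry. In 47 of 180 sets of 3 wells, the last lay within 0.0001 cycles of the mean of its 2 partners, and if it was filled in, those well SDs are too small. No sample column was left unused.

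Seedlings were averaged per family and families paired by tree. Exact sign-flip tests used 64 patterns, tests within trees up to 924 splits, and correlations 720 pairings, in Python 3.11.15 with numpy 2.4.6, scipy 1.17.1 and pandas 2.3.3, tested on simulated data. Alternatives covered unpaired tests, seedlings as the unit (100000 resamples), ranks, wells, the reference, the linear scale, sample-number series, the TIF Ct, the conflicting seedlings, and each repetition and tree left out. All 5 genes are named in each comparison, with the trees at the ends of each range and seedlings that are extreme or have discordant wells. The members, gene roles and ratios were chosen with earlier results of these data known. Repetition numbers were not used to pair seedlings. Deviations of PM and OP seedlings with the same number correlated at -0.19, 0.14 and -0.07, over 30 values for each of repetitions 1 to 3. A correlation within 1 repetition leaves out a shift common to its values, so it cannot show whether the numbers mark a shared block. In tree 193 the PM and OP seedlings of repetition 1 were samples 12 and 13, and those of repetition 3 were samples 68 and 49.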

Additional observations from a re-analysis of the deposited data

Results flagged for a closer look

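The DELLA level of 754_PM repetition 2, -4.09, stood apart from the other 5 seedlings of its family, which lay between -5.63 and -5.14. Its gap to the nearest seedling was 0.682 of the family's range. Its 2 DELLA wells read 27.03 and 24.63 cycles, and with the second well set aside the level was -5.29. Of 48 groups of 4 to 10 values examined, 1 had such a value, and chance gives about 1 in 20.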

How the results depend on the processing

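No gene, ratio or comparison within a tree reached an adjusted exact p under 0.05 in any alternative run with a test. With 1 tree left out none could reach it, as the smallest possible p of 5 pairs is 0.0625. Over the 27 alternatives that used all series of sample numbers, PM minus OP ran from 0.40 to 0.92 for GA3ox, from -0.35 to -0.10 for GID, from -0.53 to -0.11 for GA2ox from 0.45 to 0.86 for the synthesis to catabolism ratio and from 0.33 to 0.99 for GA3ox over GA20ox, each with 0 changes of sign. Genes with an unadjusted p under 0.05 numbered 1 in 5 settings (GA3ox unpaired over 6 against 6 families, exact permutation p = 0.0455, GID unpaired against all 8 OP families, exact permutation p = 0.0316, GA3ox without repetition 2, GID without repetition 3 at -0.34, and GA3ox with the series as a fixed term) and 2 in 1 setting, seedlings as the unit (GA3ox, permutation p = 0.0357, and GID, permutation p = 0.0123, adjusted 0.0616). Ratios numbered 1 in 3 settings, each time synthesis to catabolism (exact permutation p = 0.0433 and 0.0356 unpaired, permutation p = 0.0387 with seedlings as the unit). Comparisons within trees numbered 1 in 2 settings, GA3ox in tree 754 without the conflicting PM seedlings and GID in tree 754 with seedlings centred on their series (-0.36, exact p = 0.0411, adjusted 0.75).

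The replicate block, with the repetition number as a fixed term, gave GA3ox at 0.75 (exact p = 0.0938), GID at -0.33 (exact p = 0.0625), GA2ox at -0.25 (exact p = 0.219), GA20ox at 0.05 (exact p = 0.812), DELLA at -0.04 (exact p = 0.781), synthesis to catabolism at 0.64 (exact p = 0.0938), GID over DELLA at -0.29 and GA3ox over GA20ox at 0.70 (exact p = 0.25 for both), and changed no call. With 1 tree left out, GA3ox ran from 0.48 to 0.84, GID from -0.35 to -0.24, GA2ox from -0.41 to -0.19, GA20ox from -0.15 to 0.11, DELLA from -0.17 to 0.09, synthesis to catabolism from 0.50 to 0.79 and GA3ox over GA20ox from 0.41 to 0.99. Mean sample numbers of repetitions 1 to 3 were 12.5, 30.6 and 48.

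The following values changed sign, and the cause was not tested. GA20ox was -0.054 without repetition 2, -0.15 without tree 129, -0.031 without the conflicting seedlings and -0.049 with them as OP, -0.066 recomputed from Ct, -0.18 with all TIF wells, -0.028 with the series term, -0.023 with TIF Ct as a covariate, and -0.28, -0.19 and -0.029 within samples 1 to 24, 25 to 32 and 57 to 64. DELLA was 0.0063 with seedlings as the unit, 0.086 without repetition 1, 0.093 without repetition 2, 0.088 without tree 129, 0.04 without tree 193, 0.14 with all TIF wells, 0.27 on the linear scale, 0.028 with the series term and 0.58 within samples 33 to 56. Within samples 25 to 32 GA3ox was -0.70, synthesis to catabolism -0.25, GID over DELLA 0.30 and GA3ox over GA20ox -0.51. Within 57 to 64 GA3ox was -0.26 and GA3ox over GA20ox -0.23, and within 1 to 24 GA2ox was 0.017. The correlation over trees became -0.017 for GA2ox with centred seedlings and -0.079 for DELLA with the well set aside. For GA20ox with all TIF wells (same shifted well) it became 0.17. TIF Ct in the second set was 0.018 without repetition 1. Without values of well SD over 0.5 but with 754_OP repetition 1, chosen after seeing the data, GA3ox was 0.59. The 6 pairs limit the precision.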

Other observations

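PM families were also set beside the controlled-cross (CC) families that share their 6 tree numbers, with the same paired exact test. PM minus CC was -0.06 for GA3ox and -0.05 for GA20ox, 0.03 for GA2ox, -0.09 for GID and -0.18 for DELLA, with exact p from 0.438 to 1 and adjusted p of 1 for each gene. For DELLA the difference includes repetition 3 of the CC family of tree 927, whose wells read 20.94 and 27.33 cycles (deposited level -2.22), and the 2 PM seedlings with discordant wells. With the deviating well of all 3 set aside, an alternative chosen after seeing the data, it was -0.17 (exact p = 0.156) and ran from -0.54 to 0.12, in place of -1.08 to 0.72. The intervals ran from -0.51 to 0.40 for GA3ox and from -0.47 to 0.31 for GID. The CC and OP families share trees with PM, and PM enters both comparisons.

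The 2 OP families of trees without a PM family had GA3ox at -10.32 (tree 96) and -9.74 (tree 154), the latter above each of the 6 OP family means compared here, which ran from -11.19 to -10.06. Their GID was -7.39 and -7.66, inside the OP range.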
